A study of Homo sapiens with 6 samples.

Results

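The 10 genes described here go under the name of C/EBP factors and acute-phase targets: the transcription factor genes CEBPA, CEBPB, CEBPD and CEBPG, and the target genes LCN2, PTX3, SAA1, SAA2, C3 and CFB. All 10 were found by symbol among the 58735 gene rows of the expression table. They were chosen by name with the changes of this same contrast already known, among them the falls of CEBPD, LCN2 and PTX3. Their changes are therefore given as a description, with no test of the set. T24, the cell line of the study, was derived from a human bladder carcinoma; it is labelled wild type and was grown with 10% fetal bovine serum. TGF-β1 (10 ng/ml, given over 48 h) was present in 3 libraries, set against 3 control libraries without it, all taken on day 2. All 6 come from 1 line. Separate cultures are not named in the labels, so a p-value here covers just the spread among the libraries, which may be technical.

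C/EBP proteins are leucine-zipper transcription factors that bind DNA as homodimers or as heterodimers with each other. C/EBPβ and C/EBPδ are induced by interleukin-6 and interleukin-1 and drive the acute-phase response, the programme of secreted defence proteins that is best known from hepatocytes and also runs in epithelial cells. C/EBPγ lacks a transactivation domain and is known as a partner, often an inhibitory one, of the other members. TGF-β1 is a secreted cytokine that signals through receptor kinases and SMAD factors.

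Values are FPKM, fragments per kilobase of exon scaled to sequencing depth, which allow levels to be compared between genes. Fragment numbers were recovered from FPKM and exon length, and libraries held 20703945 to 23678772 fragments on genes with a unique symbol. A count of 0 fragments allows up to 3, for counting error only. The line's keratin genes KRT18 and KRT8 stood at 212 to 237 and 185 to 191 FPKM with TGF-β1 and at 265 to 375 and 192 to 243 FPKM in control. Of 11 urothelial and carcinoma markers, 4 reached 1 FPKM in some library, KRT5 and KRT19 were at 0 in all 6, and the luminal factor gene GATA3 stood at 0.0121 to 0.0368 FPKM with TGF-β1 and 0.0378 to 0.065 FPKM in control. The 5 hepatocyte markers summed to at most 0.0199 FPKM with TGF-β1 and 0.0376 FPKM in control, with APOA1 and APOB at 0. The 4 leukocyte markers summed to 0.206 to 0.338 and 0.164 to 0.275 FPKM, with CD3E at 0. The 5 fibroblast markers summed to 0.0427 to 0.158 and 0.0418 to 0.175 FPKM, with COL1A2 and PDGFRA at 0.

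Upstream sequences are shown for 3 target genes because they hold matches to the C/EBP motif or to the consensus site of NF-κB, the factor that acts with C/EBP at acute-phase promoters. Each is the 250 bases before the RefSeq gene start in build GRCh38.p14, 5′ to 3′ on the strand of the gene, with matches to either motif in capitals. LCN2 is taken from chr9:128149203-128149452, PTX3 from chr3:157436600-157436849 and CFB from chr6:31945845-31946094, all on the plus strand.
LCN2: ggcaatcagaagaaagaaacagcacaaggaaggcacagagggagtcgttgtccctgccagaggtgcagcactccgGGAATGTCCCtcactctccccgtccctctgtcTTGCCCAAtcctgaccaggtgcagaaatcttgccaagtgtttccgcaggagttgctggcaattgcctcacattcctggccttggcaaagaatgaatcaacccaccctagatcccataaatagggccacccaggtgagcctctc
PTX3: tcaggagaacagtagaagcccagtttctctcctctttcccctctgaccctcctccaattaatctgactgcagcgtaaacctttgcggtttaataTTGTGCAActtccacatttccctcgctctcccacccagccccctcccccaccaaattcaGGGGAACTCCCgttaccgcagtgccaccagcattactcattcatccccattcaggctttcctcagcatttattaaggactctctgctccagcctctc
CFB: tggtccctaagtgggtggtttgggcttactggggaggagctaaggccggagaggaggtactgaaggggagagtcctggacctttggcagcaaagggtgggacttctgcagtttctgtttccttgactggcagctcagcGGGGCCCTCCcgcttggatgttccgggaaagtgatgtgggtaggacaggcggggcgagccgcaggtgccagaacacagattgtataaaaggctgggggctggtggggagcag
Windows before RefSeq starts are reported for 6 of the 10 genes, 8 windows in all. CEBPD, C3, SAA1 and SAA2 have no window here, so the matches below do not cover them. The C/EBP motif TTGCNNAA, searched on both strands, was in the windows of LCN2 and PTX3, at 143 and 156 bases upstream. It was in 9.05% of all 35116 windows of this length. The κB consensus was in the windows of 4 genes, LCN2 at 175, PTX3 at 97 and 96, CFB at 112, and 1 of the windows of CEBPB at 186 and 185 bases upstream, against 9.96% of all windows. The paired positions are overlapping matches, and those of CEBPB lie in a run of G and C. A STAT motif, TTCNNNGAA, was in the window of CFB, and an AP-1 motif, TGANTCA, in that of LCN2, each against 6.57% of all windows. A match describes these letters and is not evidence that a factor binds there.

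The main factor genes CEBPB and CEBPD were both lower with TGF-β1. CEBPD, a factor gene induced early in acute-phase responses, stood at 41.5, 34.2 and 26.0 FPKM in the 3 TGF-β1 libraries, against 88.6, 92.4 and 62.0 FPKM in the 3 control libraries. The groups did not overlap, and replicate 3 was the lowest library of each group. The means were 33.9 ± 7.74 and 81.0 ± 16.6 FPKM (SD, n = 3 each), a ratio of 0.418. In bulk RNA, fewer cells that express a gene and less RNA per cell cannot be told apart. CEBPB, whose product is also known as NF-IL6, stood at 49.9, 48.1 and 41.3 FPKM with TGF-β1, against 85.8, 103 and 67.7 FPKM in control. Again the groups were apart and replicate 3 was lowest in both. The means were 46.4 ± 4.50 and 85.6 ± 17.7 FPKM, a ratio of 0.543.

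The remaining factor genes were at lower levels. CEBPG, often an inhibitory partner, stood at 7.17, 6.06 and 6.19 FPKM with TGF-β1 and at 5.03, 5.34 and 6.27 FPKM in control. Its groups overlapped, with control replicate 3 above 2 of the TGF-β1 libraries. The log2 change was 0.19 with a 95% interval of -0.04 to 0.42. CEBPA, known for its role in granulocyte and fat cell differentiation, stayed under 1 FPKM, at 0.444, 0.681 and 0.368 FPKM with TGF-β1 and 0.90, 0.655 and 0.658 FPKM in control. These values rest on 91 fragments over the TGF-β1 libraries and 132 over the control libraries, the groups overlapped, and the gene was below the limit for testing.

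Because FPKM is per length, the 4 factor genes could be summed. The sum was 99.0, 89.0 and 73.9 FPKM in the TGF-β1 libraries and 180, 202 and 137 FPKM in the control libraries, with means of 87.3 ± 12.6 and 173 ± 33.1 FPKM. Most of the sum came from CEBPB and CEBPD in every library. The share of CEBPD was 38.5 ± 3.36% with TGF-β1 and 46.8 ± 2.03% in control, and that of CEBPB 53.5 ± 2.82% and 49.4 ± 1.79%. CEBPG made up 7.24, 6.81 and 8.37% of the sum with TGF-β1, against 2.79, 2.65 and 4.59% in control. So the share of CEBPG differed by a ratio of 2.24 between the means while its own level differed by a ratio of 1.17. The transcript of CEBPG has 43.9% GC, against 66.2% for CEBPB and 70.0% for CEBPD. With the trend on GC content and length described below removed, all 3 log2 changes were smaller. They were 0.10 against 0.19 for CEBPG, -0.51 against -0.85 for CEBPB and -0.85 against -1.24 for CEBPD. The shares were not computed on those values.

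**Figure D1:**
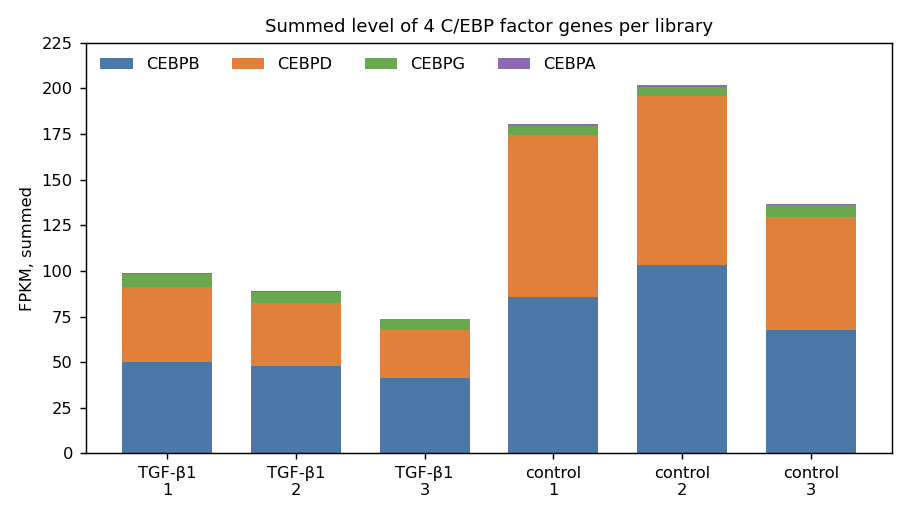
Stacked bars give the FPKM of CEBPB, CEBPD, CEBPG and CEBPA in each of the 6 libraries (vertical axis, summed FPKM), TGF-β1 libraries on the left and control libraries on the right. The sums lie between 73.9 and 99.0 FPKM with TGF-β1 and between 137 and 202 FPKM in control, and the green CEBPG segment is similar in height throughout.

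Among the target genes, LCN2, PTX3 and C3 were lower in each TGF-β1 library than in any control library. LCN2 encodes lipocalin-2, a secreted protein that binds bacterial siderophores and so withholds iron. It stood at 2.60, 2.53 and 2.45 FPKM with TGF-β1, against 6.77, 7.55 and 6.44 FPKM in control. The spread within the TGF-β1 group, 0.0756 FPKM (SD), was small beside the gap between the groups. The ratio of means was 0.365, the lowest of the 7 genes that could be tested, and the values rest on 279 and 753 fragments.

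PTX3 encodes a long pentraxin that marks microbes and damaged cells for complement and is made by many tissues outside the liver. It stood at 17.0, 20.1 and 20.7 FPKM with TGF-β1 and at 40.7, 44.1 and 41.7 FPKM in control. Here replicate 3 was not the lowest library in either group. The means were 19.3 ± 2.03 and 42.2 ± 1.75 FPKM, a ratio of 0.458. PTX3 overlaps VEPH1 on the opposite strand, with 71 exon bases shared, and VEPH1 stayed under 0.3 FPKM in all 6 libraries.

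C3, the central component of complement, was the most abundant of the 10 genes. It stood at 71.2, 74.0 and 66.5 FPKM with TGF-β1 and at 123, 113 and 111 FPKM in control, a ratio of means of 0.611. Its drop was the smallest of the 3 targets in relative terms and the largest in FPKM, with means of 70.6 ± 3.78 and 116 ± 6.16 FPKM. AC008760.2, an RNA annotated inside a C3 intron on the same strand with no exon base in common, stood at 2.03, 2.24 and 2.17 FPKM with TGF-β1 and at 3.85, 3.55 and 3.25 FPKM in control. Its value fell by 0.53 in log2(FPKM + 1) (adjusted p = 0.015, limma), a scale that understates the change of low genes. Because of its position, reads of unspliced C3 RNA cannot be told apart from its own. GPR108, whose span also overlaps C3, was at 8.19 ± 0.222 and 8.57 ± 0.552 FPKM (adjusted p = 0.70, limma).

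SAA1 was low but measurable, while SAA2 and CFB held at most 12 fragments in any library. SAA1 and SAA2 encode serum amyloid A, the acute-phase apolipoprotein that liver can raise very strongly. SAA1 stood at 2.05, 1.05 and 0.635 FPKM with TGF-β1 and at 2.41, 2.998 and 0.924 FPKM in control, from 67 and 114 fragments in all. Replicate 3 was the lowest library in both groups, and each group spanned 3.24-fold from its lowest to its highest library. The groups overlapped, and the log2 change of -0.45 had a 95% interval of -1.37 to 0.46. SAA2 held 0, 12 and 0 fragments with TGF-β1 and 5, 5 and 2 in control. The sums were 12 in both groups, each with an exact Poisson interval of 6.20 to 21.0 that covers counting error only. Of the 31-base words in SAA1 transcripts, 53.2% also occur in SAA2 transcripts, so the split of reads between the pair is uncertain.

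CFB encodes factor B, the protease of the alternative complement pathway that works with C3. It held 5, 5 and 0 fragments with TGF-β1 and 12, 5 and 3 in control. The sums were 10 fragments (exact Poisson interval 4.80 to 18.4) and 20 fragments (12.2 to 30.9). A difference in CFB was not detectable from so few fragments, while C3 in the same libraries held 40641 and 65560 fragments.

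**Figure D2:**
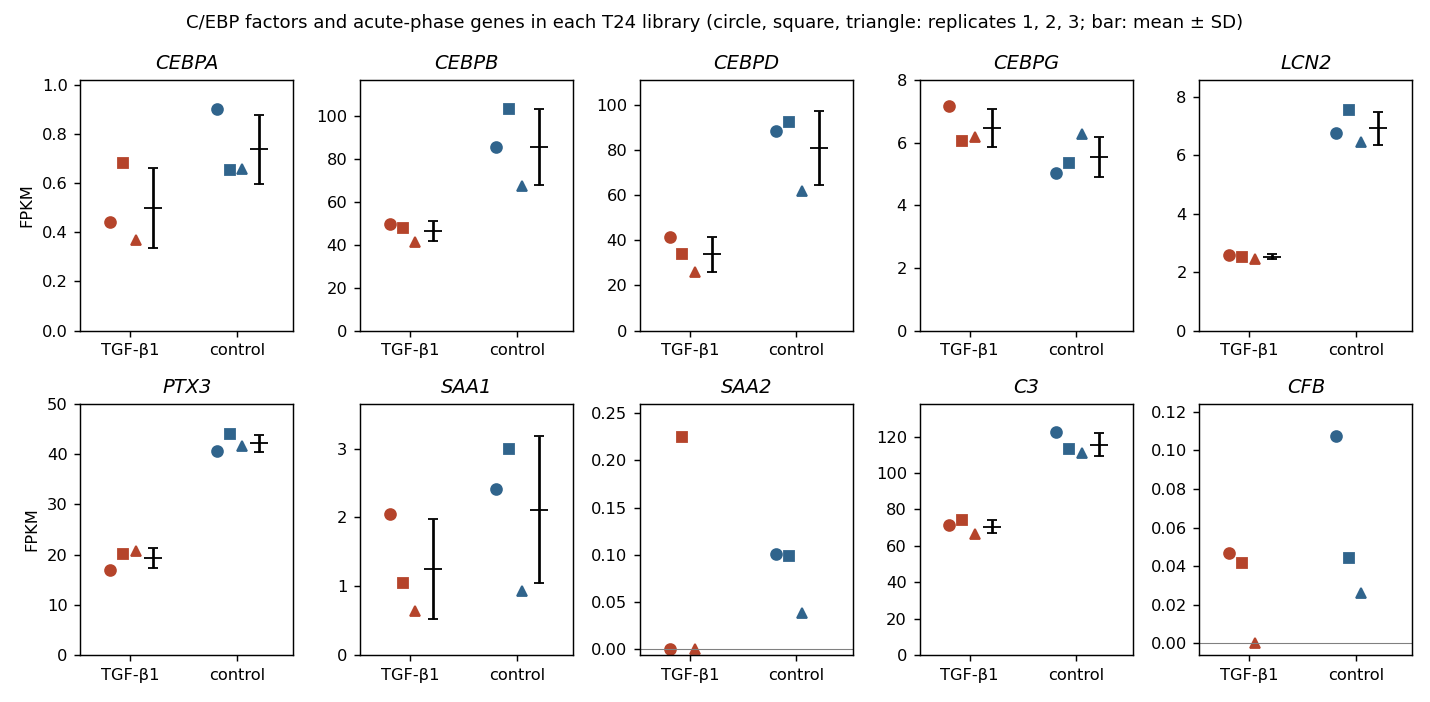
Each panel shows 1 gene, with FPKM on a linear vertical axis, the TGF-β1 libraries in red on the left and control libraries in blue on the right; circle, square and triangle are replicates 1, 2 and 3, and bars are mean ± SD of 3 libraries (not drawn for SAA2 and CFB). The groups are apart for CEBPB, CEBPD, LCN2, PTX3 and C3 and overlap in the other panels.

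The order of levels differed little between the groups. With TGF-β1 it ran from C3 at 70.6 FPKM through CEBPB at 46.4, CEBPD at 33.9, PTX3 at 19.3, CEBPG at 6.47 and LCN2 at 2.53 to SAA1 at 1.25 FPKM. In control it ran from C3 at 116 FPKM through CEBPB at 85.6, CEBPD at 81.0, PTX3 at 42.2, LCN2 at 6.92 and CEBPG at 5.55 to SAA1 at 2.11 FPKM. CEBPB and CEBPD had overlapping ranges in both groups. LCN2 and CEBPG stood in opposite order in the groups, without overlap in either.

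Of the 10 genes, 7 reached 1 FPKM in at least 3 libraries and entered the fit over all 11363 such genes, made with limma on log2(FPKM + 1). This scale understates the change of low genes. CEBPA, SAA2 and CFB did not enter. The log2 changes were -1.24 for CEBPD (SE 0.20), -0.85 for CEBPB (SE 0.15), -1.16 for LCN2 (SE 0.093), -1.09 for PTX3 (SE 0.10) and -0.70 for C3 (SE 0.096). Of these 7, 5 passed an adjusted p of 0.05, all lower, where 1.29% of all tested genes passed as lower, 1.14% as higher and 2.44% in either direction. The same 5 had groups that did not overlap, lower with TGF-β1, as did 12.5% of all tested genes, with 14.6% higher. The set was chosen with this contrast known, so these counts describe it and support nothing. The median log2 change of the 7 was -0.85, and that of all tested genes 0.01.

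Single libraries decided some of these calls. The CEBPD call was lost without control replicate 1 (adjusted p = 0.082, limma), control replicate 2 (0.093) or TGF-β1 replicate 2 (0.063), and the CEBPB call without control replicate 1 (0.060). The calls of LCN2, PTX3 and C3 held whichever single library was left out.

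**Figure D3:**
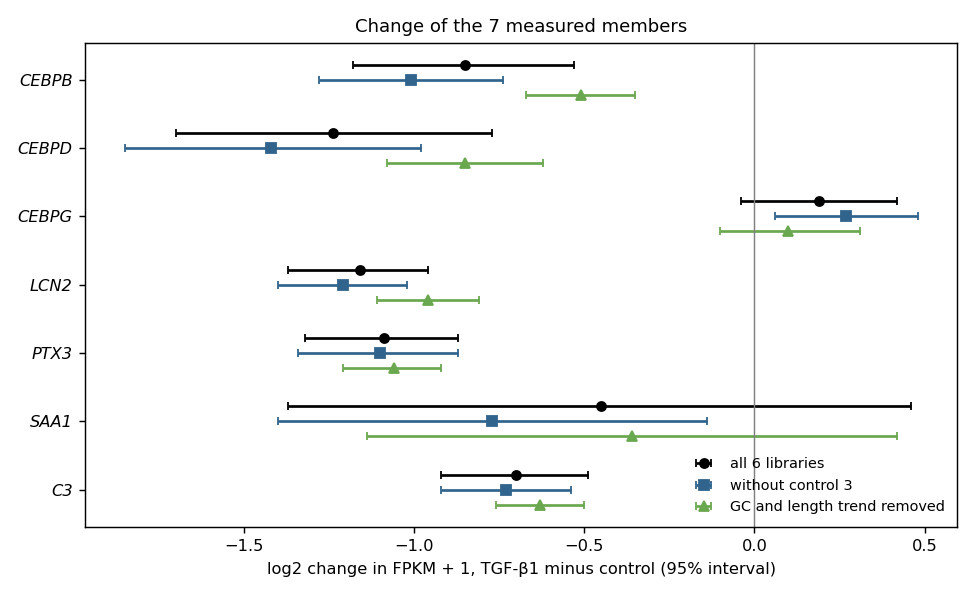
Points are log2 changes in FPKM + 1, TGF-β1 minus control, with 95% intervals from limma, for the 7 measured genes: all 6 libraries (black), without control replicate 3 (blue), and with a trend on GC content and gene length removed from each library (green). CEBPD moves from -1.24 to -0.85 and CEBPB from -0.85 to -0.51 when the trend is removed, while PTX3 moves from -1.09 to -1.06.

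GC content moved with the groups. The 2259 tested genes with a GC content of 58.0% or more, called GC-rich here, had a median log2 change of -0.22 with TGF-β1, and 88.3% of them had a change below 0. Genes with a GC content of 40.8% or less had a median of 0.16. Per library, the median log2 deviation of the GC-rich genes from their mean over all libraries, with each library centred on its median, was -0.02, -0.13 and -0.18 with TGF-β1 and 0.20, 0.21 and -0.07 in control, so replicate 3 was the lowest in both groups. Within each group CEBPB, CEBPD and SAA1 showed the same order of libraries, although SAA1 is not GC-rich. Across the groups the order differed for CEBPB and CEBPD. In this deviation control replicate 3 lay below TGF-β1 replicate 1, while for CEBPB and CEBPD it lay above. For SAA1 control replicate 3 lay below as in the deviation, at 0.924 against 2.05 FPKM. The transcripts of CEBPD and CEBPB have 70.0% and 66.2% GC, those of LCN2 and C3 56.8% and 56.5%, that of SAA1 50.7%, and those of PTX3 and CEBPG 47.5% and 43.9%. With a trend on GC content and length removed, the log2 changes were -0.85 for CEBPD, -0.51 for CEBPB, -0.96 for LCN2, -1.06 for PTX3, -0.63 for C3, -0.36 for SAA1 and 0.10 for CEBPG, and the same 5 genes passed.

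**Figure D4:**
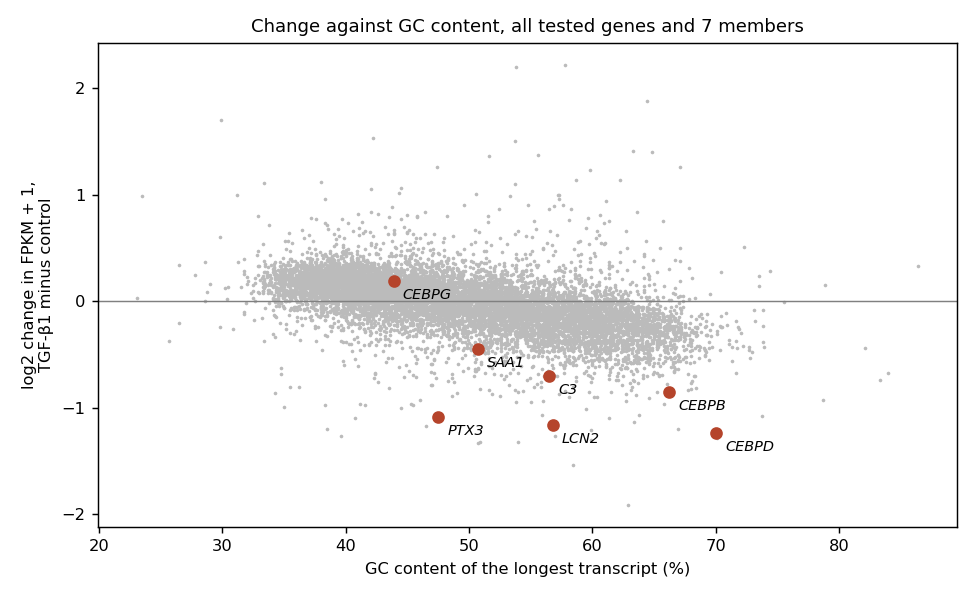
Each grey point is a tested gene, by the GC content of its longest transcript (horizontal axis, percent) and its log2 change, TGF-β1 minus control (vertical axis); red points are the 7 measured members. The grey cloud slopes down with GC content, and CEBPD, CEBPB, LCN2, PTX3 and C3 lie below most genes of their GC content.

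The genes most like CEBPD across the 6 libraries, by Pearson's r of log2(FPKM + 1) among 11356 other tested genes, were OSBPL5 (0.9991), MDK (0.9981), DDIT4 (0.9975), IQCD (0.997) and ST6GALNAC4 (0.997). Their GC content ran from 52.5% to 63.7%, and their log2 changes from -0.90 (DDIT4) to -0.36 (OSBPL5). In all, 415 genes had r above 0.95 with CEBPD, and 237 of them were GC-rich, as were 2259 of the 11363 tested genes. DDIT4, an inhibitor of mTOR signalling, stood at 50.1, 45.0 and 35.7 FPKM with TGF-β1 and at 91.8, 88.0 and 67.4 FPKM in control. The genes most like LCN2 were SMIM20 (0.9986), KANK2 (0.9947), DUSP5 (0.9946), FOSL1 (0.9936) and PLPP3 (0.9916), with log2 changes from -1.07 (DUSP5) to -0.18 (KANK2). With LCN2, 106 genes had r above 0.95, 30 of them GC-rich. FOSL1, an AP-1 subunit, stood at 75.5, 70.6 and 71.2 FPKM with TGF-β1 and at 125, 123 and 113 FPKM in control. These values describe 6 libraries that share their grouping and depth.

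Genes around the C/EBP factors were read from 8 lists that leave the 10 members out. The lists too were chosen with earlier results of these data known, so their counts describe them and support nothing. Of 55 measured genes, 2 rose and 5 fell, against 1.14% and 1.29% of all tested genes. In all, 7 passed, against 4 without control replicate 1 and 21 without control replicate 3, where 1.09% and 28.9% of all tested genes passed. Of 3 further measured genes that carry a C/EBP name or belong to the family, 0 passed in limma and 0 in voom, and 1 had an unadjusted p under 0.05. Over all tested genes, 8.56% passed in voom and 25.1% had an unadjusted p under 0.05. DDIT3, the stress-induced family member CHOP, stood at 1.75 ± 0.287 and 2.50 ± 0.60 FPKM (adjusted p = 0.16, limma). Among 7 regulators and dimer partners, ATF3, a stress-induced bZIP factor, rose to 5.90, 5.12 and 6.02 FPKM with TGF-β1, against 3.54, 3.59 and 3.56 FPKM in control (log2 change 0.55, SE 0.093, adjusted p = 0.011, limma). TRIB2, a pseudokinase that directs C/EBPα to degradation, was at 1.04 ± 0.057 and 1.601 ± 0.134 FPKM (adjusted p = 0.083, limma). ATF4, which pairs with C/EBPγ, was at 99.9 ± 9.69 and 119 ± 11.1 FPKM (log2 change -0.25, adjusted p = 0.20, limma), a change that was -0.07 after removal of the GC and length trend.

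Of 21 measured genes of the IL-6 and IL-1 inputs to the pathway, 3 passed, against 2.44% of all tested genes. IL6 and NFKBIA fell and IL6ST rose, where 1.29% of all tested genes passed as lower and 1.14% as higher. IL6, the cytokine that induces the acute-phase response, was at 9.55, 9.43 and 11.5 FPKM with TGF-β1 and at 17.3, 24.6 and 22.3 FPKM in control (log2 change -1.0, SE 0.13, adjusted p = 0.0030, limma). IL6ST, the shared receptor subunit gp130, was at 37.9, 38.8 and 43.2 FPKM with TGF-β1 and at 24.3, 23.0 and 31.8 FPKM in control (log2 change 0.59, SE 0.12, adjusted p = 0.033, limma). So in the list of 9 measured IL-6 and STAT3 genes 1 rose and 1 fell. Of 12 measured IL-1 and NF-κB genes 0 rose and 1 fell: NFKBIA, the feedback inhibitor of NF-κB, was at 92.1, 89.8 and 72.9 FPKM with TGF-β1 and at 134, 133 and 110 FPKM in control (log2 change -0.56, adjusted p = 0.041, limma). TNFAIP3, another feedback inhibitor, was at 4.88 ± 0.464 and 6.37 ± 0.178 FPKM (adjusted p = 0.085, limma).

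The IL6ST and NFKBIA calls were each lost without control replicate 1, control replicate 2, TGF-β1 replicate 2 or TGF-β1 replicate 3. Both were also lost in limma without mean-variance trend and robust estimation (adjusted p = 0.061 for IL6ST and 0.064 for NFKBIA). With the GC and length trend removed, the change of IL6ST was 0.40 and that of NFKBIA -0.44, and both passed. The ATF3 call was lost without control replicate 1 or TGF-β1 replicate 3. With no filter on low values, 0 list genes passed.

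Of 8 measured epithelial innate defence genes, which C/EBP factors and NF-κB are known to induce together, 3 fell and 0 rose, with a median log2 change of -0.44. Without control replicate 1 again 3 fell, 4 fell without control replicate 3, and 5 fell once the trend on GC content and length was taken out. In these settings 0.387%, 16.5% and 1.89% of all tested genes were called lower, against 1.29% in the fit described above. CSF3, the granulocyte colony-stimulating factor, was at 43.5, 45.3 and 55.9 FPKM with TGF-β1 and at 116, 136 and 109.5 FPKM in control (log2 change -1.30, SE 0.12, adjusted p = 0.00038, limma). CXCL2, a neutrophil chemokine, was at 9.06, 9.76 and 12.7 FPKM with TGF-β1 and at 17.2, 23.4 and 21.9 FPKM in control (log2 change -0.93, adjusted p = 0.0077, limma). CCL20, a chemokine for dendritic and T cells, was at 21.9, 22.5 and 30.3 FPKM with TGF-β1 and at 43.5, 46.5 and 41.2 FPKM in control (log2 change -0.80, adjusted p = 0.0073, limma). In all 3 genes replicate 3 was the highest TGF-β1 library, where CEBPB and CEBPD were lowest. CXCL1, another neutrophil chemokine, was at 341 ± 44.5 and 485 ± 34.4 FPKM (adjusted p = 0.056, limma).

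Most other acute-phase genes stayed under the limit for testing. Of 23 listed, 21 never reached 1 FPKM, and 8 of these were at 0 in all 6 libraries. Of the 2 that were measured, 0 passed in limma, 0 in voom and 0 had an unadjusted p under 0.05. TNFAIP6, a hyaluronan-binding protein that also binds PTX3, was at 20.5 ± 2.34 and 20.1 ± 1.49 FPKM (adjusted p = 0.92, limma).

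Of 5 measured complement genes other than C3, 0 passed in limma, 2 passed in voom and 3 had an unadjusted p under 0.05, against 8.56% and 25.1% of all tested genes. Without control replicate 3, where 16.5% of all tested genes were called lower, 2 were lower. CFD, the protease that activates factor B, was at 17.5, 20.9 and 21.2 FPKM with TGF-β1 and at 36.6, 39.7 and 24.4 FPKM in control (log2 change -0.70, adjusted p = 0.071, limma). After removal of the GC and length trend the change of CFD was -0.36 (adjusted p = 0.13, limma) and that of CD59 0.13, against 0.24. CLU, a soluble complement inhibitor, was at 5.02 ± 0.381 and 7.11 ± 0.809 FPKM (adjusted p = 0.057, limma). CD46 and CD59, membrane regulators that protect the cell's own surface, were at 26.8 ± 1.63 and 25.5 ± 3.03 FPKM and at 36.5 ± 1.58 and 30.9 ± 2.52 FPKM (adjusted p = 0.65 and 0.17, limma). Of 9 measured iron genes and LCN2 partners, 0 passed in limma, 2 passed in voom and 2 had an unadjusted p under 0.05, again against 8.56% and 25.1% of all tested genes. FTH1, the ferritin heavy chain, was at 517 ± 24.7 and 703 ± 84.6 FPKM (adjusted p = 0.080, limma), and SLC22A17, a receptor for lipocalin-2, at 1.46 ± 0.338 and 1.76 ± 0.246 FPKM (adjusted p = 0.40, limma).

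**Figure D5:**
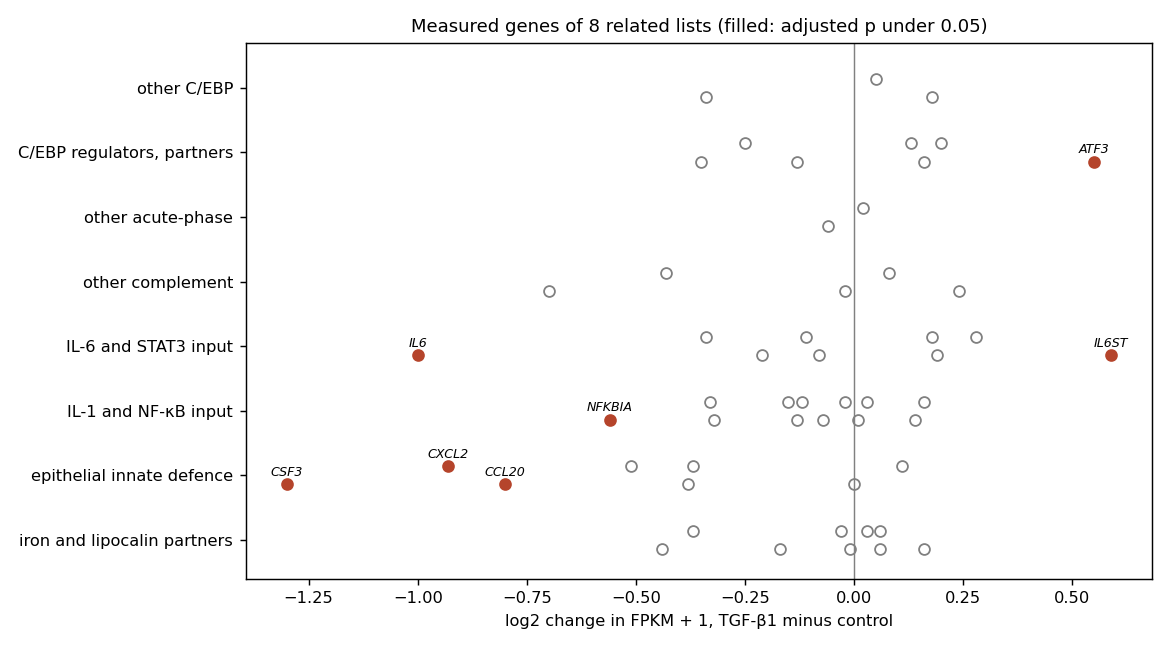
Each circle is a measured gene of 1 of 8 lists (rows), placed by its log2 change in FPKM + 1, TGF-β1 minus control; filled circles passed an adjusted p of 0.05 in limma and carry the gene symbol. The 7 filled circles are 2 rises (ATF3, IL6ST) and 5 falls (IL6, NFKBIA, CSF3, CXCL2, CCL20).

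In GENCODE release 29 on GRCh38, CEBPB (ENSG00000172216.5) lies on chromosome 20 at 50190734 to 50192689, CEBPD (ENSG00000221869.4) on chromosome 8 at 47736909 to 47739086, and CEBPA (ENSG00000245848.2) and CEBPG (ENSG00000153879.8) near each other on chromosome 19 at 33299934 to 33302564 and 33373330 to 33382686. LCN2 (ENSG00000148346.11) lies on chromosome 9 at 128149071 to 128153455, PTX3 (ENSG00000163661.3) on chromosome 3 at 157436789 to 157443628, and C3 (ENSG00000125730.16) on chromosome 19 at 6677704 to 6730562. SAA1 and SAA2 lie on chromosome 11 at 18266174 to 18269977 and 18239223 to 18248643, and CFB on chromosome 6 at 31945650 to 31952084. CEBPB shares 231 exon bases with CEBPB-AS1 on the opposite strand, which held 40 fragments over the TGF-β1 libraries and 87 over the control libraries, beside 6264 and 11384 for CEBPB. CFB shares 2249 exon bases with the same-strand gene AL645922.1, and SAA2 shares 267 with the same-strand gene SAA2-SAA4. CEBPA shares 659 and 482 exon bases with the opposite-strand genes AC008738.3 and AC008738.5. AL645922.1, SAA2-SAA4, AC008738.3 and AC008738.5 each held 0 fragments. Whether the shared bases lowered the counts of CFB, SAA2 and CEBPA was not tested. The strand setting of the counting is not stated in the labels, so reads of opposite-strand neighbours cannot be told apart.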

How the data were processed

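RNA-seq libraries of T24 cells, 3 with TGF-β1 and 3 control, were analysed from the 1 table of FPKM values that the authors deposited for all samples; the files per sample were not used. The submitters' processing notes name build hg38, featureCounts 1.5.0-p3 for counting and HISAT2 2.0.5 for alignment; neither strand setting nor annotation release was found in them. The first 11 rows are mapping totals and were left out. Exon lengths of GENCODE release 29, matched by symbol for 56923 rows, turned 99.999% of 126561 values above 0 into fragment numbers within 0.05 of whole. No 2 libraries of a group were duplicates (chi-square per degree of freedom 6.50 to 28.9 on these fragments). Limma 3.58.1 in R 4.3.3 was run on log2(FPKM + 1) with mean-variance trend and robust estimation, treatment as the only term, over genes at 1 FPKM or more in at least 3 libraries, with Benjamini-Hochberg adjustment over all of them and a threshold of 0.05; it was checked on simulated data. The members and lists were chosen with earlier results of these data known; 2 list genes are not reported here and are left out of the list counts. Named genes are the 10 members, up to 4 genes per list (those past the threshold first, then by size of change), the 5 genes most like CEBPD and LCN2, and genes overlapping a member. The removal of the GC and length trend was added after the data were seen. Sequences are from RefSeq.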

Additional observations from a re-analysis of the deposited data

How the results depend on the processing

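Over the 17 alternatives, the direction of the 7 measured members did not reverse; 111 values kept their side of the threshold and 7 lost a call. The log2 change ran from -1.42 to -0.85 for CEBPD, -1.01 to -0.51 for CEBPB, -1.41 to -0.92 for LCN2, -1.15 to -1.01 for PTX3, -0.74 to -0.62 for C3, 0.10 to 0.27 for CEBPG and -0.77 to -0.24 for SAA1. The number of members called was 2 with no filter on low values, where more genes are tested, in place of 5, and 3 to 5 when a library was left out. The number of all genes called, 277, was 15 with no filter, 500 at a minimum of 5 FPKM, 767 with the replicate number as a block, 967 by voom on the recovered fragments, 842 over protein-coding genes, 503 after removal of the GC and length trend, and 978 with control replicate 3 also left out. It ran from 124 (without control replicate 1) to 3280 (without control replicate 3) when a library was left out, with 152 without TGF-β1 replicate 2 or 3 and 176 without control replicate 2. The number of list genes called, 7, was 0 with no filter, 11 at a minimum of 5 FPKM, 12 by voom, 14 over protein-coding genes, 12 with the trend removed, 12 with control replicate 3 also left out, and 4 to 21 when a library was left out (4 without control replicate 1, 21 without control replicate 3). The cause was not tested. The replicate block left 5 members and 8 list genes called. The deviations of same-numbered libraries had r of 0.25, -0.07 and 0.17. Replicates 1 and 3 correlated best with their own number and replicate 2 did not. With so few libraries, these values cannot decide whether the numbers pair the samples. Named list genes near 0 changed sign: F3 was 0.02 without TGF-β1 replicate 1 or control replicate 2, and at lowest -0.16 without control replicate 1. TNFAIP6 was -0.06 without TGF-β1 replicate 3, -0.04 without control replicate 3, -0.08 with the trend removed and -0.17 with control replicate 3 also left out. CEBPZ ran from -0.07 (without control replicate 1) to 0.13 (without control replicate 3), and was -0.08 and -0.04 in the trend-removed settings. In those settings CD46 was -0.10 and -0.08, SLC22A17 0.09 and 0.12, and IREB2 -0.03 and -0.01. Low fragment numbers limit SAA2 and CFB, with at most 12 fragments in any library.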
